A study of Homo sapiens with 5 samples.

Results

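Genes that make ribosomes were examined in K562 cells, a human chronic myeloid leukaemia cell line that can be pushed towards erythroid or platelet-producing cells, after an induced short hairpin RNA (shRNA) against the histone demethylase JMJD1B (current symbol KDM3B). The set holds 38 genes taken from a fixed list: MYC and MAX, subunits and initiation factors of RNA polymerase I, and nucleolar proteins that modify, cut and assemble ribosomal RNA. Of these, 32 had a probe with sample names, and 56 probes of them were kept among 19105 probes of 11041 genes. POLR1A, POLR1B, WDR43, GNL3, NPM1 and MYBBP1A were not analysed here. Of the 56 probes, 54 were detected on all 5 arrays and 2, in UBTF and UTP20, on 4.

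The study screened for genes that JMJD1B controls and compared 3 bead arrays of cells with the JMJD1B shRNA (knockdown) with 2 of cells with a control shRNA. Both groups were stable K562 lines with a doxycycline-inducible (Tet-on) shRNA, kept in RPMI1640 with 5% serum and 0.05% antibiotics at 37 °C and 5% CO2, and both received 1 µg/ml doxycycline for 48 h. The labels do not say how many shRNAs or clones stand behind a group, or whether replicates were separate cultures, so p-values measure only the spread between these samples, which may be technical, and a line and its shRNA cannot be told apart. The level of the targeted gene was not analysed here, and the groups are named as labelled.

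Ribosome production starts in the nucleolus, where RNA polymerase I transcribes the large precursor of the ribosomal RNAs. Small nucleolar particles modify that precursor, and separate sets of assembly factors cut and fold it into the small and the large subunit. MYC, a transcription factor that binds DNA together with MAX, is known to raise the transcription of many of these genes in proliferating cells, and high nucleolar activity is common in leukaemia.

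A sequence feature that the gene list did not use is the E-box CACGTG, the DNA word that MYC and MAX bind and that reads the same on both strands. RefSeq promoter windows (GRCh38.p14, 250 bases before to 50 after a listed start site) were matched by symbol for 31 of the 38 genes. The word occurred in a window of 13 of these 31, or 41.9%, against 8.77% of 27305 genes with a window and 12.7% of the 8909 measured genes with a window. Median GC content was 63.3% for the 31 genes, 58.3% for all genes and 64.3% for the measured ones. Of the 14 matches, 9 began at or after the start site and 11 lay between 10 bases before and 40 after it. The list was drawn up around MYC and ribosome production, so this share is a description, and a match is not evidence of binding. Windows of 30 bases are shown for the 4 genes with a match that had the smallest p-values in the comparison of knockdown and control, with the E-box in capitals and each read 5′ to 3′ on the strand of the gene.
LYAR: cggcggcgagtcCACGTGctccccgcggcc
BYSL: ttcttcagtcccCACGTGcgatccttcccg
NOP2: gctaggtccggattgCACGTGgagggccgc
RRP9: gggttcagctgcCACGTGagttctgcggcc
The LYAR window lies at chr4:4290068-4290097 on the minus strand, with the E-box 64 bases before a listed start site. The promoter window of another listed start of LYAR, chr4:4290105-4290404, held no match. The BYSL window is at chr6:41921515-41921544 on the plus strand, with the E-box 28 bases after the start site. NOP2 has its window at chr12:6568242-6568271 on the minus strand, with the E-box 35 bases after the start, and RRP9 at chr3:51941892-51941921 on the minus strand, 5 bases before it.

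None of the 32 measured genes passed the threshold for a difference in either direction. At an adjusted p under 0.05 in limma (Benjamini-Hochberg over all 19105 probes), 0 of 32 were higher and 0 lower in the knockdown, against 283 (2.56%) and 409 (3.7%) of all 11041 genes. Over probes the counts were 0 of 56, against 2.35% higher and 2.72% lower of all probes, where 46.4% of the calls were higher, or 83.8% without normalization. At an unadjusted p under 0.05, 8 genes were lower and 0 higher, beside 13.9% and 10.1% of all genes. No other tool was run. On the scale used, which understates changes of dim probes, the differences were small. None of the 32 exceeded 1.21-fold, the value of POLR1C. With normexp background correction some dim genes had larger values, none of them called: PPAN at -0.50, UTP20 at 0.35 and RRP9 at 0.31. In the reported fit each 95% interval lay within 0.5 of no change on the log2 scale. The lowest bound was -0.45 for POLR1C and the highest 0.44 for WDR74. For 24 genes the interval held 0, and for 8 it lay below 0.

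Differences are knockdown minus control on the log2(signal + 16) scale, with n = 3 and 2 arrays and the standard error (SE) of limma. The precision was an SE of 0.06 to 0.10, with a median of 0.06. The largest unadjusted p that was called over all probes was 0.0025, and the smallest size of a called difference among genes was 0.23. LYAR, with an unadjusted p of 0.0027 and a difference of -0.23, lay just outside both. Of the 692 genes called, 172 had a smaller difference than POLR1C, the member with the largest.

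**Figure D1:**
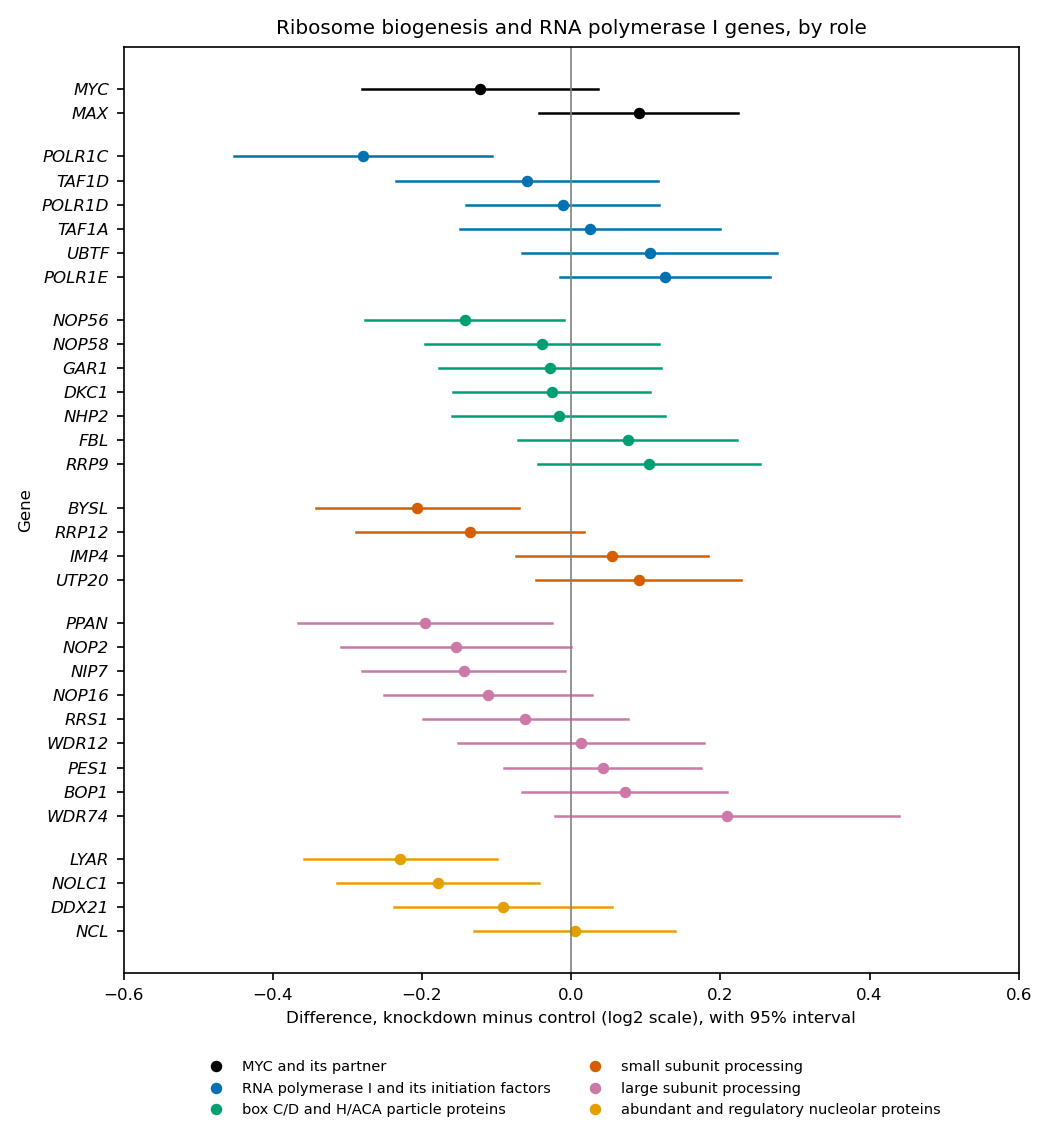
Difference between knockdown and control (log2 scale, x axis) for each of the 32 measured genes (y axis), grouped and coloured by role, with the 95% interval from limma as a line. The intervals of 8 genes, among them POLR1C, BYSL and LYAR, lie below 0, and those of the other 24 hold 0.

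The median difference over the 32 genes was -0.03, beside -0.01 over all genes. It was 0.01 with median scaling and 0.07 without normalization. The median of all genes was then 0.01 and 0.06, so the members' sign depended on the scaling and followed that of all genes. Without control replicate 1 the median over the 32 genes was -0.001. Set against the mean of the control arrays, the median over the 32 genes was -0.03 in each of the 3 knockdown arrays and 0.02 and -0.02 in the control arrays. The members lay on both sides of 0, with 13 positive and 19 negative differences between -0.28 and 0.21.

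The transcription factor MYC did not pass the test. On the probe with the higher level, ILMN_1680618, its log2 level was 13.58, 13.55 and 13.54 in the knockdown arrays and 13.78 and 13.58 in the control arrays. The groups overlapped, with control replicate 2 at the level of the knockdown arrays. The difference was -0.12 ± 0.07 (SE, adjusted p = 0.37, 95% interval -0.28 to 0.04). Its size depended on the control arrays and was -0.02 without control replicate 1 and -0.23 without control replicate 2. The other probe of MYC gave -0.05 ± 0.06.

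MAX, the DNA-binding partner of MYC, did not pass either. Its log2 level was 9.01, 8.98 and 9.08 in the knockdown and 8.93 and 8.93 in the control. All knockdown arrays lay above both control arrays, by little. The difference was 0.09 ± 0.06 (SE, adjusted p = 0.43), and the other 3 probes of MAX were at 0.02, 0.09 and 0.11.

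Among RNA polymerase I and its initiation factors, 0 of the 6 measured passed, with a median difference of 0.01. POLR1C, a subunit that RNA polymerases I and III share, had the largest difference of all 32 genes. Its log2 level was 10.98, 11.06 and 11.07 in the knockdown and 11.20 and 11.44 in the control. The groups did not overlap, and the control arrays lay further apart than the knockdown arrays. The difference was -0.28 ± 0.08 (SE, adjusted p = 0.071), and the other probe gave -0.22 ± 0.06 (adjusted p = 0.063), also without overlap. Without control replicate 1 the difference was -0.40 and was called (adjusted p = 0.040), and without control replicate 2 it was -0.16.

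POLR1D, the other subunit shared with RNA polymerase III, was at -0.01 ± 0.06 on its brighter probe. Its dimmer probe gave -0.08 ± 0.06, with the knockdown arrays below the control arrays. POLR1E, a subunit found in RNA polymerase I and not in the other polymerases, was at 0.13 ± 0.06 and 0.15 ± 0.07 on its probes, with the knockdown arrays above the control arrays on both (adjusted p = 0.29 and 0.27). UBTF, the factor that keeps ribosomal DNA open for the polymerase, had log2 levels of 8.56, 8.47 and 8.73 in the knockdown and 8.48 and 8.48 in the control. Knockdown replicate 2 lay with the controls, so the groups overlapped, and the difference was 0.11 ± 0.08 (adjusted p = 0.48). The dimmer UBTF probe pointed the other way, at -0.18 ± 0.10. Of the subunits of the selectivity factor that recruits the polymerase, TAF1A was at 0.02 and TAF1D at -0.06 on their brighter probes. The dimmer TAF1A probe gave 0.14 ± 0.07, with the knockdown arrays above the control arrays. TAF1D gave -0.21 ± 0.06 on its dimmer probe (adjusted p = 0.085).

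Ribosomal RNA is measured by other probes. RNA28SN5, which encodes the RNA of the large subunit, fell by 0.89 ± 0.09 (adjusted p = 0.00039) on its brighter probe and was at -0.38 ± 0.11 on the other (adjusted p = 0.075), whereas RNA18SN5, for that of the small subunit, was at -0.15 ± 0.13 (adjusted p = 0.57). RNA5S9, for the 5S RNA of the large subunit, which RNA polymerase III makes, fell by 1.02 ± 0.12 (adjusted p = 0.0015). Whether these signals from amplified cRNA follow the amount of ribosomal RNA, or relate to the polymerase genes, was not tested.

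Proteins of the small nucleolar particles had 0 of 7 past the threshold and a median of -0.03. NOP56, a core protein of the box C/D particles that methylate ribosomal RNA, was the lowest. On its brightest probe its log2 level was 11.32, 11.41 and 11.33 in the knockdown and 11.48 and 11.51 in the control. The groups did not overlap on that probe or on the other 2. The differences were -0.14 ± 0.06, -0.18 ± 0.06 and -0.24 ± 0.06 (adjusted p = 0.21, 0.11 and 0.057).

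NOP56's closest relative in the same particle, NOP58, was at -0.04 ± 0.07. FBL, the methyltransferase of the particle, had log2 levels of 12.70, 12.73 and 12.79 in the knockdown and 12.59 and 12.73 in the control. These overlapped, with a difference of 0.08 ± 0.07 (adjusted p = 0.57). RRP9, a protein specific to the U3 particle, was at 0.10 ± 0.07 on a dim probe. The H/ACA proteins, which serve pseudouridylation, lay near 0 on their brightest probes: DKC1, the pseudouridine synthase, at -0.03, NHP2 at -0.02 and GAR1 at -0.03. GAR1 was at 0.03, 0.13 and 0.14 on its other probes, so its sign depended on the probe.

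**Figure D2:**
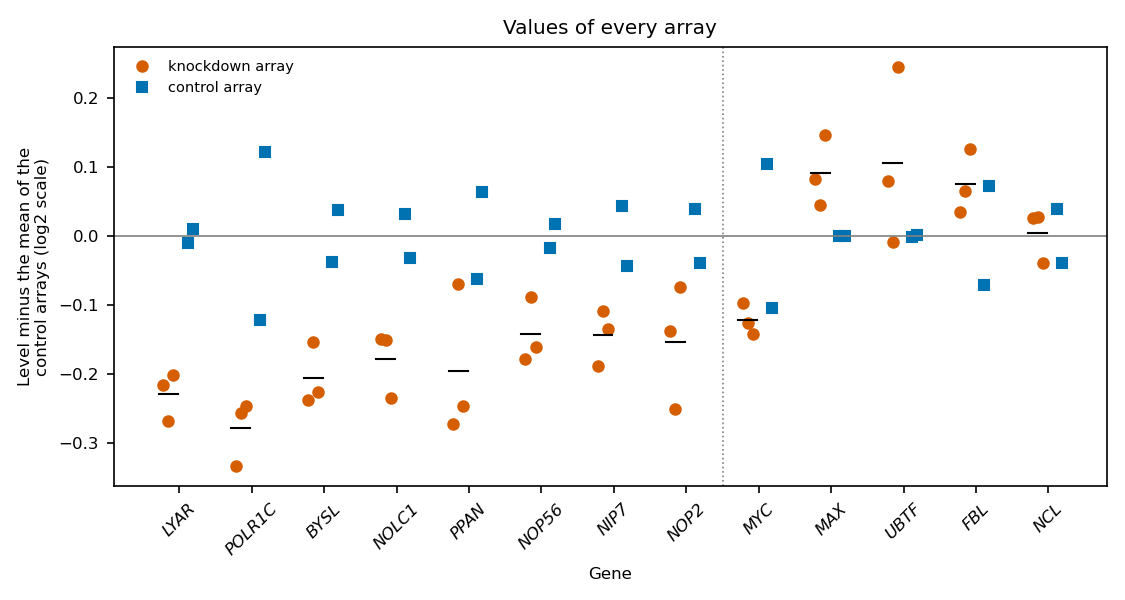
Level of each array minus the mean of the control arrays (log2 scale, y axis) for the 8 genes with the smallest p-values (left of the dotted line, in that order) and for 5 genes that stand for a role. Circles are knockdown arrays, squares control arrays and short bars the knockdown mean. In each of the 8 genes the knockdown arrays lie below both control arrays, whereas those of MYC, UBTF, FBL and NCL overlap them.

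Factors of the small subunit had 0 of 4 past the threshold and a median of -0.04. BYSL, which acts late in the processing of the small subunit, had log2 levels of 10.34, 10.43 and 10.35 in the knockdown and 10.54 and 10.62 in the control. The groups did not overlap, and the difference was -0.21 ± 0.06 (SE, adjusted p = 0.086). RRP12, an export factor, was at -0.14 ± 0.07. IMP4 and UTP20, both of the early small subunit processome, were at 0.05 ± 0.06 and 0.09 ± 0.06, with the knockdown arrays above the control arrays in each.

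Factors of the large subunit had 0 of 9 past the threshold and a median of -0.06, and they spread from -0.20 to 0.21. PPAN, needed for maturation of the large subunit, had log2 levels of 7.65, 7.86 and 7.68 in the knockdown and 7.86 and 7.99 in the control. Knockdown replicate 2 lay just under control replicate 1, and the difference was -0.20 ± 0.08 (adjusted p = 0.17). This probe is dim, and with the pooled background subtracted the value was -0.44, still not called (adjusted p in limma = 0.26). The gene PPAN is also part of a read-through transcript with its neighbour, which its probe may not tell apart.

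NIP7, an assembly factor that binds the precursor RNA, had log2 levels of 10.68, 10.76 and 10.73 in the knockdown and 10.91 and 10.82 in the control. NOP2, an RNA methyltransferase of the large subunit, had 11.53, 11.42 and 11.59 against 11.71 and 11.63. In both genes the groups did not overlap, with differences of -0.14 ± 0.06 and -0.15 ± 0.07 (adjusted p = 0.21 and 0.23). NOP2's other probes gave -0.15 and -0.03.

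NOP16 was at -0.11 and -0.15 on its probes, without overlap on either. RRS1, which helps to bring the 5S RNA into the large subunit, was at -0.06 ± 0.06. The 3 subunits of the PeBoW complex, which act together in the maturation of large subunit RNA, had small positive values: BOP1 at 0.07, PES1 at 0.04 and WDR12 at 0.01. WDR74 had the highest value of the set, 0.21 ± 0.10 (adjusted p = 0.28), and the least even arrays, with 9.22, 9.21 and 8.88 in the knockdown and 8.80 and 8.99 in the control, so that knockdown replicate 3 lay between the controls. Its value was 0.11 without control replicate 1, where RRP9 and UTP20 were higher at 0.19 and 0.13, and 0.32 without knockdown replicate 3.

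Of the abundant and regulatory nucleolar proteins 0 of 4 passed, with the lowest median of the roles, -0.13. LYAR, a nucleolar zinc finger protein that promotes ribosomal RNA synthesis and, as known from erythroid cells, binds the fetal globin promoter, had the smallest p-value of the 32 genes. Its log2 level was 11.53, 11.48 and 11.54 in the knockdown and 11.73 and 11.76 in the control. The groups were well apart for the spread within them, with SDs of 0.04 and 0.01. The difference was -0.23 ± 0.06 (SE, adjusted p = 0.052), and the other probe gave -0.20 ± 0.07 (adjusted p = 0.11), also without overlap.

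NOLC1, a chaperone of small nucleolar particles, had log2 levels of 9.56, 9.55 and 9.47 in the knockdown and 9.74 and 9.67 in the control. These did not overlap, and the difference was -0.18 ± 0.06 (adjusted p = 0.13). DDX21, an RNA helicase of the nucleolus, was at -0.09 ± 0.07. NCL, nucleolin, was level on its brighter probe, with 13.48, 13.48 and 13.41 in the knockdown and 13.49 and 13.41 in the control. The difference was 0.005 ± 0.06 (adjusted p in limma = 0.98, 95% interval -0.13 to 0.14). Its dimmer probe gave 0.08 ± 0.09, with overlapping groups.

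All knockdown arrays lay below both control arrays in 11 of the 32 genes (34.4%) and above them in 4 (12.5%). Over all genes the shares were 23.9% and 17.9%. The calls at the edge depended on the setting. LYAR was called lower with an offset of 50, with 1 probe a gene, with probes detected on all 5 arrays and with eBayes trend and robust options (adjusted p = 0.038, 0.030, 0.041 and 0.018). POLR1C was called with 1 probe a gene and with the trend and robust options (adjusted p = 0.046 and 0.028), and BYSL with the latter only (adjusted p = 0.046). The direction of these 3 genes was the same under each of the 17 alternatives run. The fits with 1 probe a gene, no filter, probes on all 5 arrays or trend and robust options reuse the same normalized values. Their differences equal the reported ones by construction, so the direction could not change there.

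**Figure D3:**
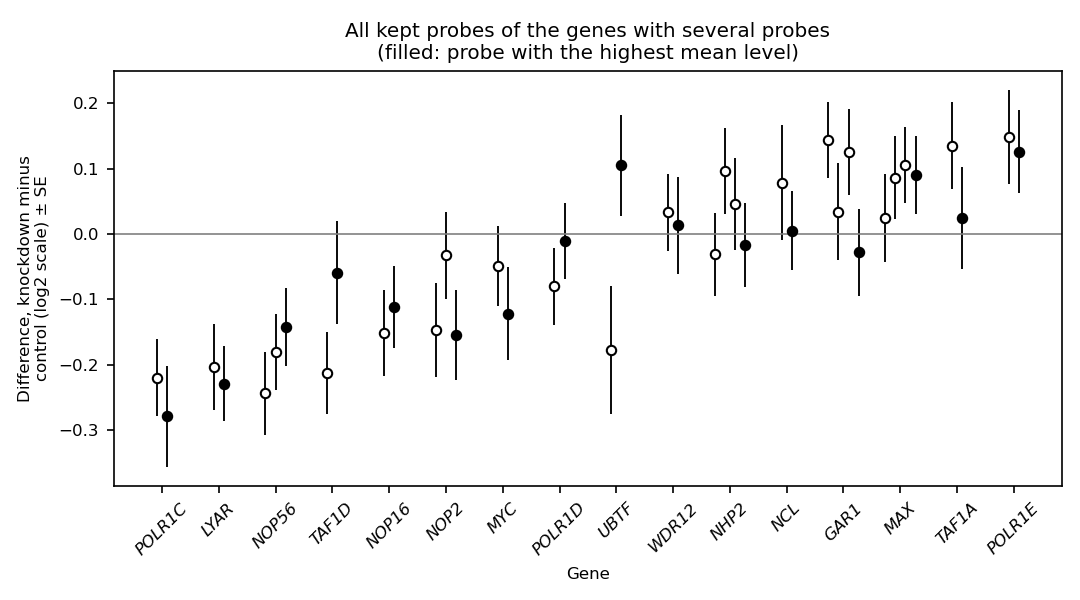
Difference between knockdown and control (log2 scale, y axis) with its standard error for each kept probe of the 16 genes with several probes. Filled points are the probe with the highest mean level. All probes of POLR1C, LYAR, NOP56, NOP16 and NOP2 lie below 0 and all of MAX and POLR1E above it, whereas UBTF, NHP2 and GAR1 have probes on both sides.

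Of the 16 genes with several probes, 13 had the same sign on every probe. GAR1, NHP2 and UBTF had probes of either sign. Which transcripts each probe reports was not analysed here. Agreement was closest in WDR12, POLR1E and LYAR, whose probes lay within 0.03 of each other, and widest in UBTF, with 0.28 between its probes.

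The differences were also read against the E-box windows. The 10 measured genes with the word in a window had a median difference of 0.01, from -0.23 for LYAR to 0.10 for RRP9, with 5 negative. The 15 measured genes with a window and no match had a median of -0.02, from -0.28 for POLR1C to 0.21 for WDR74, with 9 negative. These values are a description with no test.

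The rest of the pathway was read from 7 lists drawn from textbook knowledge. Over their 219 measured genes, 1 rose and 3 fell, beside 2.56% and 3.7% of all genes, and the median was -0.005. Other RNA polymerase I and ribosomal DNA factors had 0 higher and 1 lower of 19: CAVIN1, known both as a release factor of polymerase I transcripts and as a coat protein of caveolae, fell by 0.29 ± 0.06 (adjusted p = 0.027). Other small subunit factors had 1 higher and 0 lower of 51. FCF1, an endonuclease-like protein of the small subunit processome, rose by 0.34 ± 0.08 (adjusted p = 0.038), and its other probe was at 0.24. Other large subunit factors had 0 higher and 2 lower of 54, namely DDX55, an RNA helicase, which fell by 0.30 ± 0.06 (adjusted p = 0.026), and EFL1, the GTPase that releases an anti-association factor from the new large subunit, which fell by 0.29 ± 0.06 (adjusted p = 0.029). EFL1's other probe was at -0.26. None of the 4 calls in CAVIN1, FCF1, DDX55 and EFL1 held when any 1 of the 5 arrays was left out, with adjusted p in limma from 0.057 to 0.20 for FCF1 and from 0.058 to 0.15 for CAVIN1.

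RNA polymerase III and its factors, which make the 5S RNA whose gene RNA5S9 fell as given above, had 0 of 22 past the threshold in limma and 0 higher and 1 lower at an unadjusted p under 0.05, with BRF2 at -0.20 and GTF3C1 at -0.16. The nuclear exosome with its cofactors and other nucleases of precursor RNA had 0 of 13, and 1 higher and 1 lower unadjusted: XRN2, an exonuclease apart from the exosome, was at 0.19 and the exosome subunit EXOSC4 at -0.21. Of 22 other MYC network factors 0 passed, and 2 were higher and 3 lower unadjusted. PIM1, a kinase that cooperates with MYC, was at 0.31 ± 0.08 (adjusted p = 0.054). It was called higher under 8 of the 17 alternatives, among them median scaling and the trend and robust options (adjusted p = 0.019 for each), and was at 0.44 without control replicate 1 and 0.18 without control replicate 2. MNT, a repressor that competes for MAX, was at -0.21 ± 0.06 (adjusted p = 0.079). Of 38 MYC targets outside ribosome production 0 passed, and 1 was higher and 5 lower unadjusted. IMPDH1, of guanine nucleotide synthesis, was at -0.23, and NME1, a nucleoside diphosphate kinase, at 0.20, but at -0.07 on its dimmest probe.

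**Figure D4:**
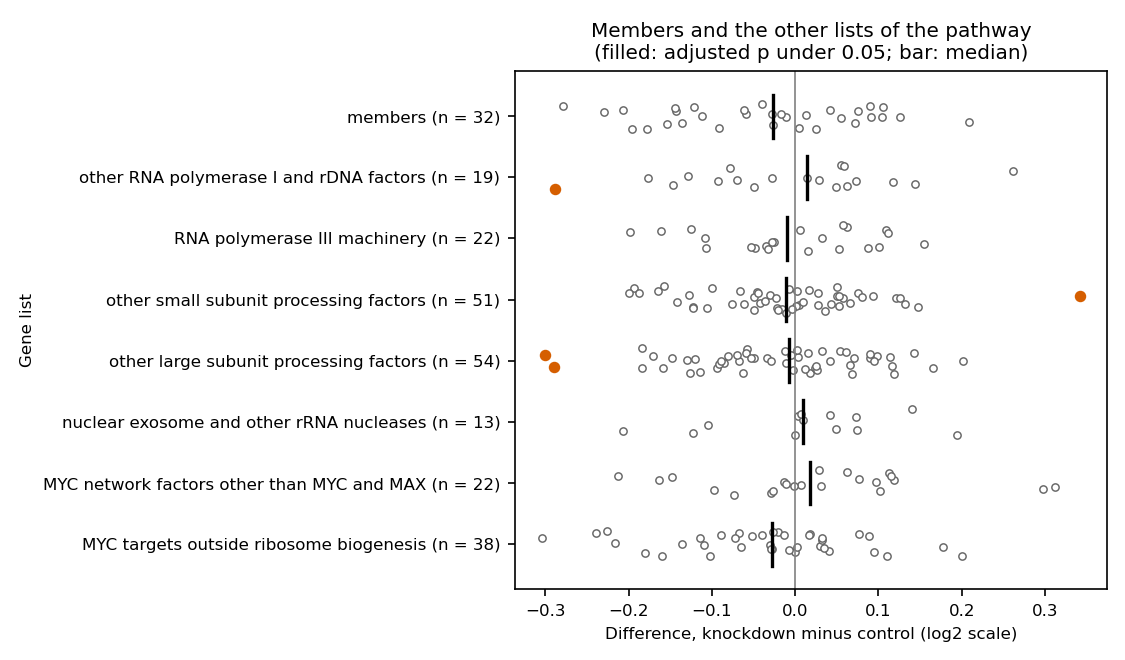
Difference between knockdown and control (log2 scale, x axis) for the 32 measured genes of the set (members) and the genes of 7 further lists (y axis), 1 point per gene, with the median as a bar and genes at an adjusted p under 0.05 filled. The medians lie between -0.03 and 0.02, and 4 points are filled: CAVIN1, FCF1, DDX55 and EFL1.

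Between 18230 and 18596 of 19144 labelled probes were detected per array. The SD of the difference between a pair of arrays, taken across probes, was 0.12 to 0.13 within a group and 0.17 to 0.18 between groups. Of 16 markers of K562 cells 13 were kept, 12 of them detected on all arrays, and the others were not analysed here. The summed normalized signal of these 13 was 200347 to 204105 in the knockdown and 211683 to 217608 in the control. Gene by gene, 6 differences were positive and 7 negative, with a median of -0.003 and a range of -0.56 to 0.11. In limma 0 were called higher and 2 lower, beside 2.56% and 3.7% of all genes. Of the markers of other cell types, 2 of 9 for lymphocytes, 5 of 6 for monocytes and 3 of 9 for epithelium and fibroblasts were kept. Their summed signals were 377 to 402, 3622 to 3758 and 53800 to 54938 in the knockdown and 412 to 424, 3665 to 3862 and 58693 to 61674 in the control. The 3 genes kept for epithelium and fibroblasts, CDH1, DCN and VIM, had differences of -0.15 to -0.02, and 0 of them were called. The keratin, collagen and PDGFRB markers of that list were not analysed here, so its sum does not measure a share of such cells. The part of these shifts in the values above was not tested. In bulk samples, fewer cells of a type and less RNA per cell cannot be told apart.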

How the data were processed

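The authors deposited bead intensity values on a linear scale for 5 samples, neither background corrected nor normalized as far as the values show (lowest signal 109.6, array medians 455.6 to 498.6). The submitters' processing notes name GenomeStudio 2009.2, and its settings were not given in the sources used. A larger deposited table holds the same intensity values for 47321 probes with a detection p-value each, per the file headers. Its 5 signal columns match no sample name and served only as a key and, pooled, for a background level (median 124.0 over 24817 probes detected on no array). Each of the 19144 labelled rows equals the signals of exactly 1 probe of that table, but only 47 carry its ID, so every row took the ID of the larger table. Probes were named from the platform annotation (14581 with 1 symbol, 2 with several), with symbols updated through a RefSeq table (GRCh38.p14).

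Signals were put on the log2(signal + 16) scale without background subtraction, which understates changes of dim probes. They were then quantile normalized with limma 3.58.1 in R 4.3.3. Probes with a detection p-value under 0.05 on at least 2 arrays were kept. A model with group as its only term was fitted over all 5 arrays and 19105 probes (3 residual degrees of freedom, 10.1 with the prior), with Benjamini-Hochberg adjustment. The fit was tested on simulated data. It recovered 70.1% of 67 changes of 1.25-fold and 100% of 67 of 1.5-fold and 66 of 2-fold. There were 18 false calls among the unchanged probes. The simulated noise was normal, independent between probes and drawn from the moderated spread of each probe, and normalization was not part of it. Recovery in the data may therefore differ. Changes under 1.25-fold were not simulated. A gene is shown by its kept probe with the highest mean level, and 95% intervals use the moderated degrees of freedom. The number of arrays limits the precision. Array values are named for MYC, MAX, the 8 members with the smallest p and the defining genes of a role, and for other lists the called genes or the 2 smallest p. Members and lists were chosen with earlier results of these data known. WDR74's array values were added after they were seen.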

Additional observations from a re-analysis of the deposited data

How the results depend on the processing

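In the reported fit of 3 and 2 arrays, gene differences under about 0.23 on the log2 scale were not called, and signals near the background are compressed. Some alternatives called smaller ones, such as BYSL at -0.21 with trend and robust options. Over the 17 alternative fits, 0 members were called higher in any, and 2 were called lower with 1 probe a gene, 1 with probes detected on all 5 arrays, 1 with an offset of 50, 3 with trend and robust options, and 0 to 1 with an array left out. The median over members was 0.01 (0.0068) with median scaling and 0.07 (0.0653) without normalization against -0.03 (-0.0271), and -0.0407 to -0.0012 with an array left out, where control replicate 1 gave the value nearest 0. Probes called higher and lower were 449 and 519 as reported, 791 and 153 without normalization (83.8% higher), 130 and 92 with the pooled background subtracted (58.6%), 95 and 52 with normexp (64.6%), and 175 to 240 and 126 to 218 with an array left out. Genes of the other pathway lists called higher and lower were 4 and 6 with 1 probe a gene, 3 and 3 with cyclic loess, all 5 arrays or an offset of 50, 2 and 3 with median scaling, 4 and 0 without normalization, 5 and 7 with trend and robust options, 0 and 0 with normexp or the pooled background, and 0 to 2 and 0 with an array left out. The cause of these shifts was not tested.

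Replicate numbers 1 and 2 occur in both groups, but the labels do not say that they pair samples. Deviations of same-numbered arrays from their group mean correlated at -0.22 and -0.09 (Pearson's r across probes). With 2 control arrays these deviations mirror each other, and knockdown replicate 1 was at 0.22 with control replicate 2. The values therefore cannot settle whether samples were paired. With the replicate number as a block, 194 probes were higher and 145 lower, and 0 members and 0 pathway genes were called. The median over members was -0.0388 and TAF1A was at -0.0508. Replicate 3 occurs only in the knockdown, so the block takes up that array. The differences of the block fit therefore equal those without knockdown replicate 3.

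Signs changed for members near 0, none of them called. Without normalization DKC1 was at 0.0653, GAR1 at 0.0653, NHP2 at 0.0674, NOP58 at 0.0573, POLR1D at 0.0823 and TAF1D at 0.0188. With median scaling DKC1, GAR1, NHP2 and POLR1D were at 0.0067, 0.0068, 0.0088 and 0.0237, and with cyclic loess NCL was at -0.0032 and POLR1D at 0.0041. With an array left out the ranges were -0.0554 to 0.0033 for DKC1, -0.1135 to 0.0574 for GAR1, -0.0338 to 0.0434 for NCL, -0.0649 to 0.0312 for NHP2, -0.0809 to 0.0158 for NOP58, -0.002 to 0.0864 for PES1, -0.0352 to 0.013 for POLR1D, -0.0508 to 0.0753 for TAF1A, -0.1832 to 0.0646 for TAF1D and -0.0239 to 0.0806 for WDR12. Other probes gave GAR1 0.1441, 0.1253 and 0.0341, NHP2 0.0964 and 0.0465, and UBTF -0.1777.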
